A study of Homo sapiens with 6 samples.

Results

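Small nucleolar RNAs of the box C/D class (SNORD genes), those of the box H/ACA class (SNORA genes) and the small Cajal body RNAs (scaRNAs, SCARNA genes) were followed in SK-N-BE neuroblastoma cells depleted of the long noncoding RNA CyCoNP. The members were chosen by symbol and level: a gene was kept when its mean over the 6 libraries was at least 1 FPKM (fragments per kilobase of gene, scaled to library depth). Of 552 genes with such symbols among the 60676 genes in the tables, 156 were kept, namely 87 of 314 box C/D genes, 56 of 213 box H/ACA genes and 13 of 25 scaRNA genes. Because they were selected on their level, the levels below are a description. The rule did not use the comparison between the groups, but a member low in 1 group could be kept through the other.

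SK-N-BE is an established human neuroblastoma line, and all 6 libraries came from this line after 1.5 days of differentiation in 10 μM retinoic acid. The 3 control libraries were from cells transfected with a scrambled siRNA (si-SCR), and the other 3 were from cells transfected with a pool of siRNAs against CyCoNP (si-CyCoNP), annotated as LINC02381. Both groups went through lipofection, retinoic acid and the same total RNA library preparation with ribosomal RNA removal. The labels number the replicates without saying that they were separate cultures, so p-values measure only the spread between these libraries. In bulk RNA, fewer cells that carry an RNA and less of it per cell cannot be told apart.

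Box C/D RNAs guide ribose methylation and box H/ACA RNAs guide pseudouridylation, mostly of ribosomal RNA, each by base pairing with its target and in complex with a fixed set of core proteins. Small Cajal body RNAs carry the same boxes and guide the modification of spliceosomal RNAs in the Cajal body. Most human members are cut from introns of host genes after splicing, whereas a few, such as the U3 RNA of SNORD3A, have their own promoters and act in the cleavage or other processing of the ribosomal precursor rather than in methylation.

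The sequences printed are those of the members that passed the test and of SNORA73B, the most abundant H/ACA member. Among members with a mean of at least 10 counts, SNORA5C and SCARNA22 had the smallest p of their class above 0. SNORA23 had the smallest p of the H/ACA members below 0. SNORD113-2 and SNORD14E, related to members that passed, were added, and SCARNA7, the most abundant scaRNA, is not printed. The sequences were read 5′ to 3′ as DNA letters from the GENCODE v44 transcripts on GRCh38, and the U3 sequence was trimmed to the length of its RefSeq RNA, 217 bases. In the box C/D RNAs the capitals mark the C box (NTGATGA in the first 20 bases, or anywhere in U3) and the D box (CTGA in the last 20 bases). In the H/ACA RNAs and in both scaRNAs shown they mark the match to the H box (ANANNA) nearest the middle and the ACA in the last 8 bases. The motifs were searched on the RNA strand alone, and a match is a match of letters only.
SNORD3A: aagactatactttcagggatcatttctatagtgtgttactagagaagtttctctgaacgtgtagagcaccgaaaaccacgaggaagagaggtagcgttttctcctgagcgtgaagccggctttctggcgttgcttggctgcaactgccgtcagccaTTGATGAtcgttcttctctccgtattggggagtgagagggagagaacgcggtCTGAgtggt
SNORD17: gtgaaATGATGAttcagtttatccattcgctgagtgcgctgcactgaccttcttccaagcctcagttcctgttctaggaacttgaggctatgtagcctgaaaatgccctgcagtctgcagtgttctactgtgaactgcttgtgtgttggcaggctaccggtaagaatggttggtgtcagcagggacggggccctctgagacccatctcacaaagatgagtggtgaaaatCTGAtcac
SNORD114-20: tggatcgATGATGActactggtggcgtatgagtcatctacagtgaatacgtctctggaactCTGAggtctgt
SNORD114-21: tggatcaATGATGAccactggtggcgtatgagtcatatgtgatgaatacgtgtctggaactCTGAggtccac
SNORD113-3: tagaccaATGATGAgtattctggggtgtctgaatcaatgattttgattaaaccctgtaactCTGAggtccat
SNORD113-2: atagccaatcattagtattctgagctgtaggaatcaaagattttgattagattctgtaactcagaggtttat
SNORD14A: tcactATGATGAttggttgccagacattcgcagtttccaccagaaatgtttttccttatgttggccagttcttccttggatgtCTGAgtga
SNORD14E: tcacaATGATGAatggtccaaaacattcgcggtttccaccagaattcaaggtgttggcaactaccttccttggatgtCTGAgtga
SNORA73B: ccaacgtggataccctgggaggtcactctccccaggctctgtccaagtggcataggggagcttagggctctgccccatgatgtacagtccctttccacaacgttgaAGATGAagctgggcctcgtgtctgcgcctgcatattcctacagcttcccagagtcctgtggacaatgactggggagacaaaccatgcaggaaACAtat
SNORA23: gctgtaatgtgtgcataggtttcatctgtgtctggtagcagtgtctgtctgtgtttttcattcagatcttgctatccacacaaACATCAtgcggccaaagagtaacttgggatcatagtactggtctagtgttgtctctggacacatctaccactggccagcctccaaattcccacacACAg
SNORA5C: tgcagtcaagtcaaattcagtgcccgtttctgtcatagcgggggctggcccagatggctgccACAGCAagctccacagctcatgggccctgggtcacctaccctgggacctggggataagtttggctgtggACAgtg
SCARNA21: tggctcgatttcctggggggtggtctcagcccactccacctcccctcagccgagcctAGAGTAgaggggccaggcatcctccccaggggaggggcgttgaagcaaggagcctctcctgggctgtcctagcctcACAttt
SCARNA22: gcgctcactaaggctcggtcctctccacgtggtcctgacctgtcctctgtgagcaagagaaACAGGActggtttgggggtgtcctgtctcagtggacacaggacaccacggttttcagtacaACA

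SNORD3A lies at chr17:19188016-19188714 (plus strand, GRCh38) as a gene model of 699 bases, of which the printed U3 RNA is the first 217. SNORD17 lies at chr20:17962710-17962946 (minus strand) within SNX5. SNORD114-20 (chr14:100981004-100981075), SNORD114-21 (chr14:100981975-100982046), SNORD113-3 (chr14:100929919-100929990) and SNORD113-2 (chr14:100927342-100927413) lie in introns of the noncoding gene MEG8 on the plus strand. SNORD14A (chr11:17074654-17074744, minus strand) lies within RPS13, SNORD14E (chr11:123058077-123058161, minus strand) within HSPA8, SNORA73B (chr1:28508559-28508762, plus strand) within RCC1, SNORA23 (chr11:9428773-9428954, plus strand) within IPO7, SNORA5C (chr7:45104906-45105042, minus strand) within TBRG4, SCARNA21 (chr17:7906122-7906260, plus strand) within CHD3 and SCARNA22 (chr4:1974636-1974760, plus strand) within NSD2. All lie in introns of these hosts except SCARNA22, which overlaps an exon of NSD2.

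Both boxes were matched in 53 of the 87 box C/D members (60.9%), which is close to the 142 of 227 box C/D genes under 1 FPKM (62.6%), and in none of the 56 box H/ACA members. For these counts the C box had to lie in the first 20 bases, so the U3 copies did not count as matched. The ACA stood in the last 8 bases of 51 of the 56 H/ACA members (91.1%) and of 124 of 157 H/ACA genes under 1 FPKM (79.0%). In SNORD113-2 neither the C nor the D box was matched, although it is of the same family and length as SNORD113-3. The 20 bases before each CTGA, where a box C/D guide pairs with its target, were also compared with ribosomal RNA. An uninterrupted complement of at least 10 bases to 18S, 28S or 5.8S ribosomal RNA was found in 32 of the 62 box C/D members outside MEG8 (51.6%). It was found in none of the 25 within MEG8, whose longest stretches were 6 to 9 bases. SNORD14A held a stretch of 13 bases to 18S (cttccttggatgt) and SNORD14E one of 14 (ccttccttggatgt), both directly before the printed D box, and SNORD17 held 11 bases to 28S (ggacggggccc) near an internal CTGA. Over the H/ACA members, which pair through internal loops instead, the same search found such a stretch in 4 of 56 (7.1%). Members without a CTGA had no bases to compare, so this share is not a like background for that of the box C/D members.

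Library totals ran from 3762009 to 4799407 counts. LINC02381 had 208 to 315 counts in the si-SCR libraries and 12 to 30 in the si-CyCoNP libraries (log2 fold change -3.78, SE 0.190), so the depletion followed the labels. All 9 adrenergic neuroblastoma markers, among them DBH and TH of catecholamine synthesis, passed the level filter, and 1 of them (MYCN) rose and 5 fell, where 14.2% of all tested genes did in each direction. Of 6 markers of other cell types, ALB and PECAM1 were listed at 0, the summed level of the list was 0.879 to 1.14 FPKM in si-SCR against 1.93 to 2.22 FPKM in si-CyCoNP, and COL1A1, a collagen of stromal cells, rose with a log2 fold change of 1.68 and from a mean of 0.450 to 1.50 FPKM. The means of EPCAM (0.549 and 0.516 FPKM) and PTPRC (0.026 and 0.017 FPKM) were slightly lower in si-CyCoNP and were not tested. The part of these differences in the results below was not tested.

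Most of these RNAs were thinly counted. The mean count per library was under 3 for 71 of the 156 members, from 3 to under 10 for 52 and at least 100 for 8, with a median of 3.58. The members just inside the limit, SNORA74C-1, SNORD114-4 and SNORA16B, had 5, 2 and 4 counts over all 6 libraries (1.01, 1.11 and 1.14 FPKM). Those just outside, SNORA73, SNORD62 and SNORD127, had 4, 2 and 2 counts (0.916, 0.912 and 0.907 FPKM), so a few fragments separated the sides. No count at all was listed for 361 of the 552 genes. Of the 232 genes that share an exon with another gene of the same strand, 209 had no count (90.1%), against 152 of the 320 that share none (47.5%). Fragments that overlap more than 1 gene go to neither in this way of counting, and SNORD118 (the U8 RNA), SNORA73A and SCARNA2, each sharing an exon, were listed at 0 in every library, though the part of such overlaps in the zeros was not tested. Of the other groups of copies, the 48 numbered SNORD115 genes were listed at 0 and the 30 numbered SNORD116 genes held 5 counts in all. A further member with the plain symbol SNORD116, within MVB12B on chromosome 9, held 0, 3 and 0 counts in si-SCR against 1, 0 and 1 in si-CyCoNP.

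Length moved with detection. Only 5 of the 278 box C/D genes under 100 bases were members with a mean of at least 10 counts, and all of these lie within MEG8. Among box C/D genes of 150 bases or more, 5 of 14 reached that mean, as did 5 of 28 H/ACA genes and 4 of 10 scaRNA genes of that length. From 100 to under 150 bases, 2 of 22 box C/D, 10 of 173 H/ACA and 2 of 15 scaRNA genes did. Of the 5 long box C/D genes, 4 were U3 copies, whose gene models extend past the 217 bases of the RNA. Members at any count were 72 of 278, 9 of 22 and 6 of 14 box C/D genes, from the shortest to the longest range. H/ACA members were 0 of 12 genes under 100 bases, 48 of 173 in the middle range and 8 of 28 in the longest. ScaRNA members were 8 of 15 and 5 of 10 genes in the last 2 ranges. Above 100 bases, membership thus hardly changed with length in H/ACA and scaRNA genes. In all, 33 members had a mean of at least 10 counts (12 box C/D, 15 H/ACA and 6 scaRNAs), and the comparisons below rest on these. The plot of counts against gene length shows this spread.

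**Figure D1:**
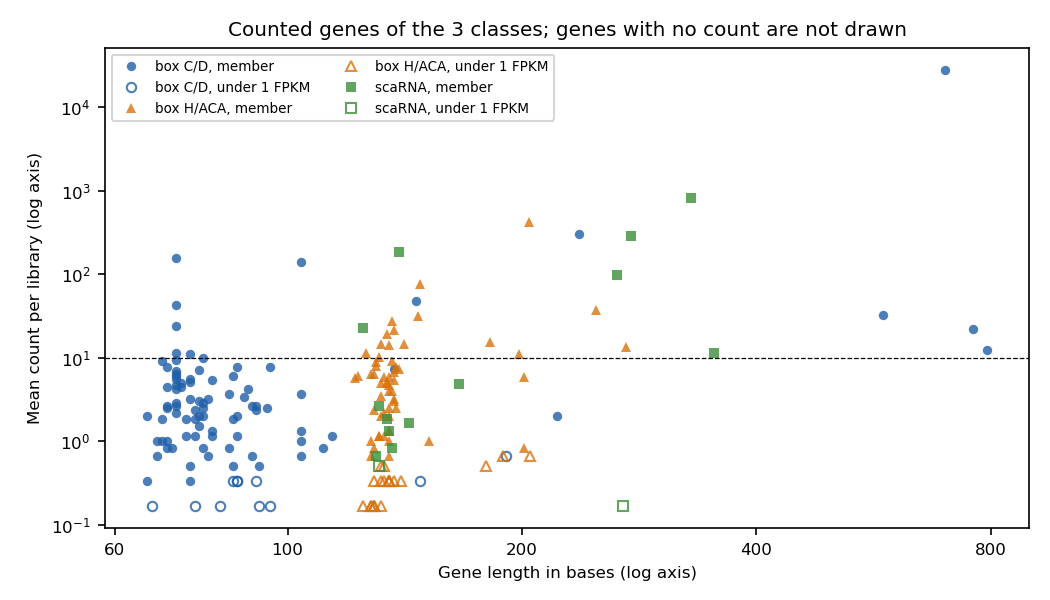
Mean count per library (log axis) against gene length in bases (log axis) for the counted genes of the 3 classes, filled where the gene is a member and open where it is under 1 FPKM, with a dashed line at 10 counts. Most box C/D genes sit at the left and under the line, and SNORD3A stands alone at the top with a mean of 27893 counts.

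SNORD3A held nearly all of the counts. It took between 85.6% and 90.8% of the members' counts in each library, and the members as a whole took 0.514% to 0.852% of all counts. Without SNORD3A, the box C/D class summed to 242, 247 and 263 CPM (counts scaled to library size) in si-SCR against 205, 235 and 240 CPM in si-CyCoNP, which do not overlap. The H/ACA members summed to 194 to 215 CPM in si-SCR against 203 to 215 CPM in si-CyCoNP, and the scaRNAs to 334 to 349 CPM and 299 to 343 CPM, both overlapping. Per length, the most abundant members after SNORD3A (9232 FPKM over its long gene model) were SCARNA7 (566 FPKM), SNORD114-20 (502 FPKM), SNORA73B (476 FPKM), SCARNA21 (310 FPKM), SNORD13 (309 FPKM) and SNORD17 (294 FPKM), and the library ranges of the last 3 overlap.

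**Figure D2:**
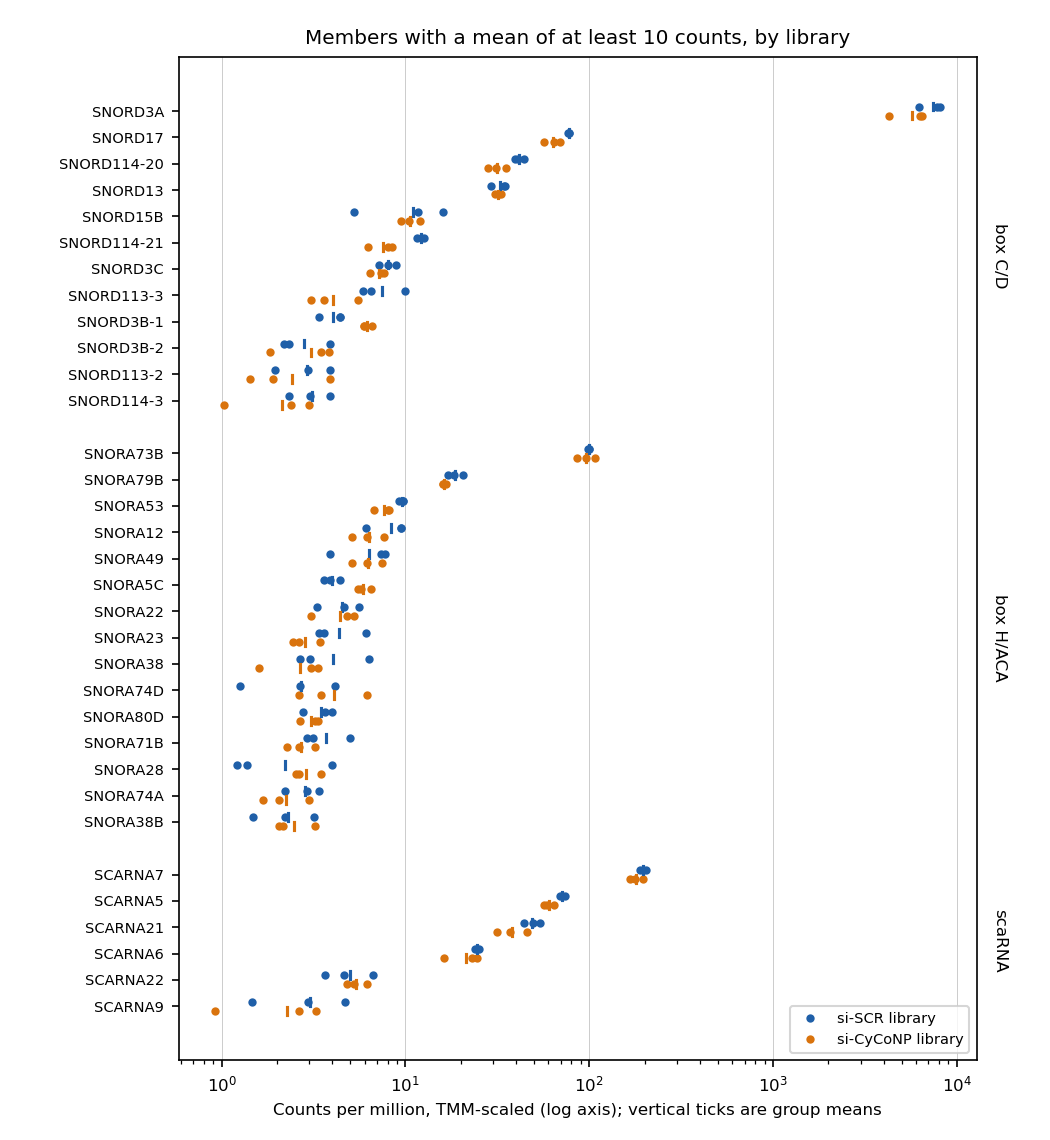
CPM scaled by trimmed-mean normalisation (TMM, log axis) of the 33 members with a mean of at least 10 counts, one point per library and a tick at each group mean. The si-CyCoNP points of SNORD17, SNORD114-20, SNORD114-21, SNORD113-3, SNORA79B, SNORA53 and SCARNA5 all lie left of the si-SCR points, whereas those of SNORD3A and SCARNA21 overlap them.

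The effect of CyCoNP depletion on these RNAs was then asked gene by gene, with edgeR's quasi-likelihood test over the 13966 genes with a mean of at least 1 FPKM in either group, among which all 156 members necessarily were. At an adjusted p under 0.05, 6 members fell and 1 rose, where 14.2% of all tested genes fell and 14.2% rose. The 6 that fell were the box C/D RNAs SNORD3A, SNORD17, SNORD114-20, SNORD114-21 and SNORD113-3 and the scaRNA SCARNA21, and the one that rose was the box C/D RNA SNORD14A, which is named after its values were seen because its counts are low. With a log2 fold change past 1 in addition, 1 member was higher, against 2.28% of all tested genes, and 0 were lower, against 2.98%. Without adjustment, 8 members were lower and 3 higher at p under 0.05. Of the 123 members under 10 counts, whose SEs ran from 0.48 to 2.06 on the log2 scale, 0 were lower at the adjusted threshold and 1 was at the unadjusted one. DESeq2 called 0 of the 70 members to which it gave an adjusted p, and 6 were lower and 1 higher by its unadjusted p. Each of these calls also rested on single libraries, as given for each member below with the adjusted p without that library.

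Among the 33 better-counted members, 6 fell, which is 18.2%, against 17.2% of the 11432 tested genes with at least 10 counts. The estimate was below 0 in 26 of the 33, in 10 of 12 box C/D, 11 of 15 H/ACA and 5 of 6 scaRNAs, whereas it was below 0 in 5694 of the 11432 genes. The 33 are not independent, since 5 share the host MEG8 and 4 are copies of U3. The median log2 fold change was -0.28 for box C/D, -0.19 for H/ACA and -0.22 for the scaRNAs, beside 0.0015 over those 11432 genes. Over 48 other genes of up to 300 bases with at least 10 counts it was -0.052, and 10 of them fell and 8 rose. Over all members without a minimum count, it was -0.10, 0.07 and -0.20. The libraries of the 2 groups did not overlap for 7 of the 33, lower in si-CyCoNP, where 20.0% of all tested genes did so in this direction, and for 2 of the 33 in the other direction, where 20.1% did.

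SNORD3A, the U3 RNA that pairs with the ribosomal precursor during the maturation of 18S, had 33245, 28286 and 29613 counts in si-SCR against 30653, 18717 and 26844 in si-CyCoNP. Its log2 fold change was -0.38 (SE 0.109, 95% interval -0.61 to -0.16, adjusted p = 0.0090). The groups overlapped after scaling (6238 to 8117 against 4300 to 6432 CPM), and replicate 2 of si-CyCoNP was the lowest of all. Without that library, the log2 fold change was -0.22 (adjusted p = 0.090), and DESeq2 gave -0.39 (adjusted p = 0.17).

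The other counted copies of U3 differ from SNORD3A by single bases within the printed length, with positions counted from the 5′ end of the printed sequence. SNORD3B-1 and SNORD3B-2 carry A78C and SNORD3C carries G108A, while SNORD3D, listed at 0, differs by A4G, C53T and A78C. Fragments from sequence that copies share map to several copies and are not counted, and how reads divide between copies is uncertain. SNORD3C had 33, 26 and 42 counts in si-SCR against 36, 28 and 32 in si-CyCoNP (log2 fold change -0.17, SE 0.249). SNORD3B-1 had 18, 16 and 16 counts in si-SCR against 32, 26 and 25 in si-CyCoNP, without overlap, but did not pass the test (log2 fold change 0.62, SE 0.306, adjusted p = 0.14), although limma called it higher at either pseudocount (adjusted p = 0.011 and 0.012). SNORD3B-2 had 9, 14 and 11 counts in si-SCR against 17, 8 and 16 in si-CyCoNP, with overlap (log2 fold change 0.15, SE 0.426). The gene models of these copies, of 581 to 791 bases, extend past the RNA.

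Other structured RNAs with their own promoters were measured beside U3. Of the 18 tested in that list, 1 rose and 2 fell, where 14.2% of all tested genes moved in each direction. RN7SL1, the RNA of the signal recognition particle, had 153010 to 170119 FPKM in si-SCR against 128364 to 135247 FPKM in si-CyCoNP (log2 fold change -0.37, SE 0.070, adjusted p = 0.00017), and did not pass with limma (adjusted p = 0.055 and 0.48 at pseudocounts of 1 and 0.1). RNY1, a Y RNA, fell by 0.40 on the log2 scale (SE 0.145, adjusted p = 0.038) with overlapping groups, a call lost without si-CyCoNP replicate 1 (0.23) or 3 (0.13) and kept in 9 of 16 settings. RNU5D-1, a U5 spliceosomal RNA, rose by 1.38 (SE 0.498, adjusted p = 0.038) with 1 high library. Of the rest, 10, among them RN7SK, RMRP and RPPH1, were listed at 0. SNORD13, which has its own promoter and guides the acetylation of 18S, had 142, 106 and 164 counts in si-SCR against 149, 140 and 139 in si-CyCoNP. Its groups overlapped, with a log2 fold change of -0.04 (SE 0.132, 95% interval -0.31 to 0.23).

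The 25 members within MEG8, a maternally expressed noncoding gene whose introns hold the SNORD113 and SNORD114 families, were the largest group with 1 host and lie between chr14:100924824-100993310. They are 25 of the 39 box C/D genes of these families (64.1%), whereas 62 of the other 275 box C/D genes were members (22.5%). These families have no known ribosomal target, and as a set they were counted better than the other box C/D members, with a median of 5.5 against 2.0 counts per library.

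SNORD114-20 had 167, 143 and 209 counts in si-SCR against 138, 135 and 148 in si-CyCoNP, and fell by 0.40 on the log2 scale (SE 0.129, adjusted p = 0.021). SNORD114-21 had 52, 42 and 58 counts in si-SCR against 41, 35 and 26 in si-CyCoNP, and fell by 0.68 (SE 0.227, adjusted p = 0.024). SNORD113-3 had 24, 36 and 31 counts in si-SCR against 15, 24 and 15 in si-CyCoNP, and fell by 0.86 (SE 0.319, adjusted p = 0.043). The call was lost for SNORD114-20 without si-SCR replicate 3 (adjusted p = 0.050), si-CyCoNP replicate 1 (0.12) or 2 (0.063), and for SNORD114-21 without si-SCR replicate 1 (0.063) or si-CyCoNP replicate 3 (0.11). For SNORD113-3 it was lost without si-SCR replicate 2 (0.24), si-CyCoNP replicate 1 (0.17) or 3 (0.11). Both SNORD114-20 (0.059) and SNORD113-3 (0.064) also missed the threshold by library totals alone, and with limma (0.055 and 0.082 at a pseudocount of 1). In all 3, every si-CyCoNP library was below every si-SCR library after scaling, although by library totals alone the groups of SNORD113-3 overlapped. SNORD114-20 and SNORD114-21 are neighbours and 84.7% identical, with 11 differences in 72 bases, so that unique fragments tell them apart.

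SNORD113-2 had 8, 14 and 14 counts in si-SCR against 7, 17 and 8 in si-CyCoNP (log2 fold change -0.27, SE 0.462). SNORD114-3 had 16, 11 and 11 counts in si-SCR against 5, 13 and 10 in si-CyCoNP (log2 fold change -0.54, SE 0.463). Neither passed the test, and the groups overlapped in both. The 20 members of lower count summed to 95, 115 and 112 counts in si-SCR against 79, 110 and 88 in si-CyCoNP, with overlap after scaling, and none passed, 14 with an estimate below 0 and 6 above. SNORD114-6 had the smallest p of these, with 7, 13 and 7 counts against 2, 6 and 3 (adjusted p = 0.11). Summed over all 25, the families gave 84.3, 96.0 and 90.9 CPM in si-SCR against 59.4, 78.6 and 71.2 CPM in si-CyCoNP, without overlap.

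MEG8 itself, counted over its exons, had 1140, 1172 and 1317 counts in si-SCR against 867, 990 and 942 in si-CyCoNP. It fell by 0.48 on the log2 scale (SE 0.094, 95% interval -0.67 to -0.29, adjusted p = 0.00029), again with every si-CyCoNP library below every si-SCR library, and missed the threshold with limma (adjusted p = 0.060 and 0.062 at pseudocounts of 1 and 0.1). Relative to the si-SCR mean, MEG8 stood at 0.717 ± 0.0959 (SD, n = 3) and its 25 members together at 0.736 ± 0.0997 (SD, n = 3) in si-CyCoNP. Replicate 1 of si-CyCoNP was the lowest for both. Fragments of unspliced MEG8 RNA that cover a member are counted with the member, and the 2 sources were not separated.

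**Figure D3:**
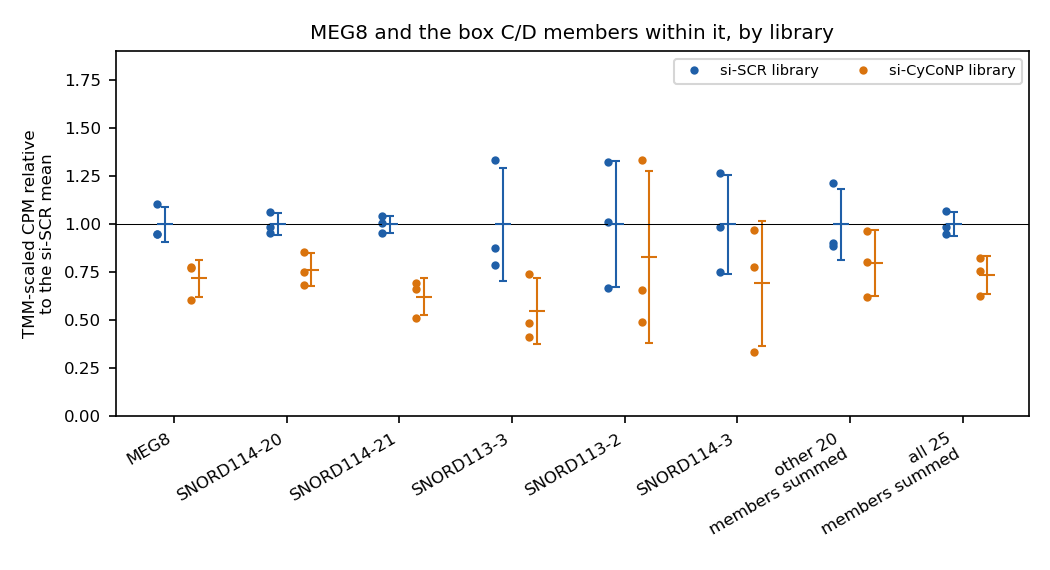
TMM-scaled CPM relative to the si-SCR mean for MEG8, its 5 members with at least 10 counts, the other 20 summed and all 25 summed, with 1 point per library and bars of mean ± SD (n = 3). MEG8 stood at 0.717 and all 25 members together at 0.736 of the si-SCR mean in si-CyCoNP, and the groups of SNORD113-2, SNORD114-3 and the other 20 overlap.

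SNORD17, a long box C/D RNA paired with 28S, had 317, 278 and 370 counts in si-SCR against 275, 281 and 289 in si-CyCoNP. After scaling these were 76.9 to 77.9 CPM and 56.4 to 69.2 CPM without overlap, and SNORD17 fell by 0.29 on the log2 scale (SE 0.104, adjusted p = 0.037). Its host SNX5, a sorting nexin, had a log2 fold change of 0.0013 (SE 0.089, 95% interval -0.18 to 0.18). By library totals alone SNORD17 gave -0.22 (adjusted p = 0.12), and its call was lost without si-SCR replicate 1 (0.065) or 2 (0.077) and without si-CyCoNP replicate 1 (0.21) or 2 (0.072). SNORD15B, within RPS3 and with a stretch of 10 bases to 28S (gaggcatttg), had 48, 19 and 76 counts in si-SCR against 51, 41 and 50 in si-CyCoNP (log2 fold change -0.09, SE 0.268). Its si-SCR libraries spread more widely than the difference, while RPS3, a protein of the small ribosomal subunit, fell by 0.30 (adjusted p = 0.0027).

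SNORD14A was the one member that rose, and it did so from almost nothing, with 0, 0 and 1 counts in si-SCR against 4, 4 and 7 in si-CyCoNP (adjusted p = 0.026). These were 0, 0 and 2.30 FPKM in si-SCR against 9.16, 10.3 and 18.6 FPKM in si-CyCoNP. It thus met the limits of 1 FPKM only through the group where it is high, so its choice and its rise are not independent. The ratio of the summed counts, 15 to 1, was 13.9 with an exact 95% interval of 2.15 to 587 that covers counting error only. DESeq2 gave it no adjusted p, and in edgeR the call was lost without si-SCR replicate 1 (adjusted p = 0.094) or 2 (0.092) or si-CyCoNP replicate 3 (0.12). SNORD14E, the related copy printed above, had 1, 4 and 4 counts in si-SCR against 5, 13 and 9 in si-CyCoNP, overlapping after scaling, and did not pass (ratio 2.79, exact 95% interval 1.27 to 6.74, adjusted p = 0.11). The hosts did not pass either, at a log2 fold change of -0.13 for RPS13 (SE 0.082) and 0.21 for HSPA8 (SE 0.103).

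Among the 56 box H/ACA members, edgeR called 0 in either direction, with 1 higher and 0 lower at an unadjusted p under 0.05. DESeq2 called 0 of the 33 with an adjusted p, and limma on log2(FPKM + 1) called 4 higher and 1 lower. SNORA73B, a U17 RNA that acts in the cleavage of the ribosomal precursor, was the most abundant, with 409, 355 and 475 counts in si-SCR against 471, 373 and 446 in si-CyCoNP. Its log2 fold change was -0.04 (SE 0.097, 95% interval -0.24 to 0.15), and its groups overlapped. SNORA79B had 84, 62 and 87 counts in si-SCR against 81, 70 and 67 in si-CyCoNP (log2 fold change -0.20, SE 0.171), and SNORA53 had 40, 35 and 44 against 33, 35 and 34 (log2 fold change -0.32, SE 0.235). After TMM scaling every si-CyCoNP library of both was below every si-SCR library, although by library totals alone SNORA79B overlapped, and neither passed.

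SNORA5C had the smallest p among the better-counted H/ACA members with an estimate above 0, with 16, 13 and 21 counts in si-SCR against 27, 25 and 27 in si-CyCoNP. These groups did not overlap, but its log2 fold change of 0.56 (SE 0.309, adjusted p = 0.19) did not pass in edgeR, whereas it did in limma at either pseudocount (adjusted p = 0.0089 and 0.0084). SNORA23 had the smallest p among those below 0, with 25, 13 and 16 counts against 12, 15 and 11 (log2 fold change -0.61, SE 0.380, adjusted p = 0.26) and overlapping groups. SNORA12 (-0.42), SNORA38 (-0.61), SNORA71B (-0.43) and SNORA74A (-0.36) also had estimates below 0, and SNORA74D (0.65), SNORA28 (0.34) and SNORA38B (0.12) above, all with SEs of 0.270 to 0.471 and overlapping groups. SNORA49 (-0.05), SNORA22 (-0.07) and SNORA80D (-0.20) were nearer to 0. SNORA9B, the only H/ACA member with an unadjusted p under 0.05 and named here after its values were seen, had 6 of its 7 counts in replicate 1 of si-CyCoNP.

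Of the 6 better-counted scaRNAs, 1 fell and 5 did not pass, and their SEs ran from 0.085 to 0.489 on the log2 scale. SCARNA21 had 220, 179 and 209 counts in si-SCR against 181, 137 and 192 in si-CyCoNP, and fell by 0.36 on the log2 scale (SE 0.134, adjusted p = 0.044), with overlapping groups and replicate 2 of si-CyCoNP the lowest. Without that library it gave -0.24 (adjusted p = 0.25), and the call was also lost without si-CyCoNP replicate 1 (0.11) and without si-SCR replicate 1 (0.16) or 2 (0.089). SCARNA5 had 303, 258 and 329 counts in si-SCR against 278, 257 and 270 in si-CyCoNP, without overlap after scaling, and missed the threshold (log2 fold change -0.25, SE 0.103, adjusted p = 0.074). Its neighbour in the same host, SCARNA6, had 103, 86 and 116 counts against 119, 71 and 96 (log2 fold change -0.20, SE 0.164) with overlap.

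SCARNA7, the most abundant scaRNA, had 777, 712 and 964 counts in si-SCR against 815, 773 and 815 in si-CyCoNP. Its groups overlapped, with a log2 fold change of -0.13 (SE 0.085, 95% interval -0.30 to 0.05). SCARNA22 (log2 fold change 0.14, SE 0.314) and SCARNA9 (-0.37, SE 0.489) had means of 22.3 and 11.3 counts and could not be placed on either side of 0. None of the other 7 scaRNA members exceeded a mean of 4.83 counts.

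Of the 156 members, 149 lie within a host gene, 107 in protein-coding hosts and 38 in long noncoding ones. Some, among them SNORA73B, SNORD17 and SNORD113-3, lie within 2 annotated genes, and the one with the highest mean count was taken as host. The 33 better-counted members include 28 with a tested host, in 22 distinct hosts. MEG8, RPS3 and CCNB1IP1 (host of SNORA79B) fell, whereas SNHG4 (host of SNORA74A and SNORA74D), SNHG17 (SNORA71B), NOL11 (SNORA38B) and PRRC2A (SNORA38) rose, and 15 hosts did not pass. The sign of the estimate was the same in member and host in 14 of 28, and in 12 the host estimate was above 0 with the member's below. Across the 28 members, which are not independent since 5 share MEG8 and 2 hosts hold another pair each, the log2 fold changes of member and host had a Spearman rho of 0.26 and a Pearson r of 0.37.

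SNHG4 rose by 1.09 on the log2 scale (SE 0.203, adjusted p = 0.00016), from 2.32 ± 0.69 to 5.18 ± 0.80 FPKM (SD, n = 3). The members within it did not pass: SNORA74D had 11, 15 and 6 counts in si-SCR against 17, 27 and 11 in si-CyCoNP, and SNORA74A had 12, 8 and 16 against 10, 13 and 7. CHD3, a chromatin remodeller that hosts SCARNA21, had a log2 fold change of 0.19 (SE 0.089, adjusted p = 0.11), on the other side of 0 from its scaRNA. RCC1, the better counted of the 2 genes around SNORA73B, gave 0.32 (SE 0.132, adjusted p = 0.071), and the other gene was not compared with it. Over the hosts of all members, 15 of 102 tested rose (14.7%) and 15 fell (14.7%), beside 14.2% for all tested genes in each direction.

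**Figure D4:**
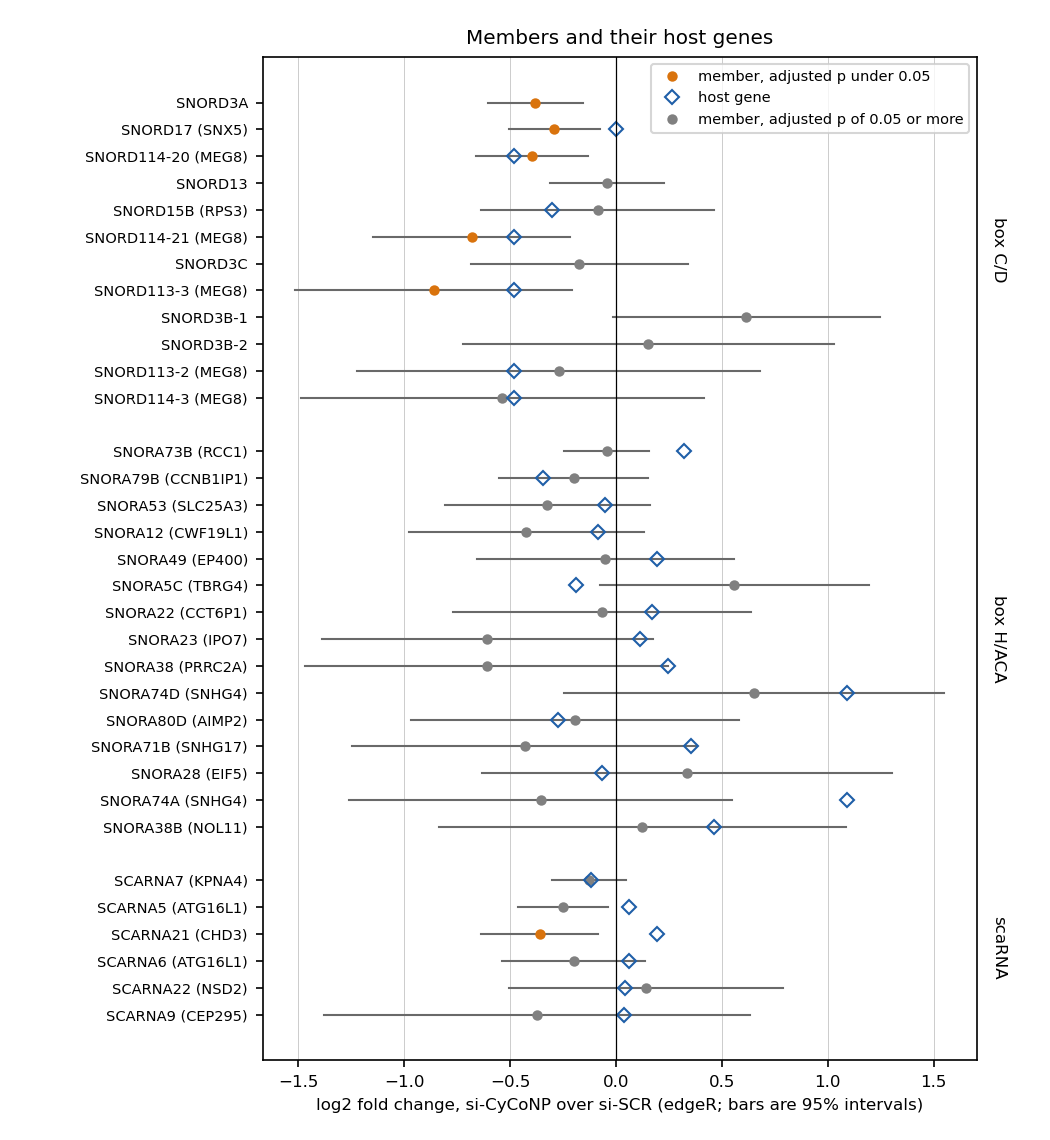
Log2 fold change of si-CyCoNP over si-SCR with its 95% interval for the 33 members with at least 10 counts (circles, orange where the adjusted p was under 0.05) and for their host genes (open diamonds). The 5 members in MEG8 and MEG8 (-0.48) all lie below 0, whereas SNORD17 (-0.29) and SCARNA21 (-0.36) lie below hosts at 0.0013 and 0.19.

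Of the 24 noncoding genes known as hosts of small nucleolar RNAs, 6 rose and 1 fell, where 14.2% of all tested genes rose and 14.2% fell. SNHG20 (0.99), SNHG12 (0.65), SNHG3 (0.51), SNHG8 (0.42), SNHG1 (0.39) and SNHG17 (0.35) rose by these log2 fold changes, and MEG8 fell. GAS5, which carries many box C/D RNAs in its introns, had 35.8 ± 0.89 FPKM in si-SCR against 35.1 ± 3.0 FPKM in si-CyCoNP (SD, n = 3, log2 fold change -0.10, SE 0.085). The median of the list was 0.09.

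Among the mRNAs of the proteins that bind, assemble and trim these RNAs, over 5 lists, 11 of 33 rose, where 14.2% of all tested genes did, and the other 22 did not pass, with a median log2 fold change of 0.13 beside 0.0053 over all tested genes. The 4 core proteins of box C/D particles did not pass. FBL, the methyltransferase fibrillarin, had 53.2 ± 4.8 FPKM in si-SCR against 54.2 ± 4.0 FPKM in si-CyCoNP (SD, n = 3, log2 fold change -0.04, SE 0.092), and NOP56 gave -0.03, NOP58 0.11 and SNU13 0.12.

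Of the 4 core proteins of H/ACA particles, 2 rose. DKC1, the pseudouridine synthase dyskerin, had 18.8, 17.8 and 20.2 FPKM in si-SCR against 34.4, 30.3 and 32.9 FPKM in si-CyCoNP (log2 fold change 0.71, SE 0.093, adjusted p = 1.1e-06). GAR1 rose by 0.56 (SE 0.160, adjusted p = 0.0095, and 0.052 without si-SCR replicate 2), NOP10 gave 0.27 (adjusted p = 0.064) and NHP2 gave 0.08 (adjusted p = 0.66).

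Of the 11 assembly factors, 5 rose. NOLC1, a nucleolar and Cajal body chaperone of both classes of particle, had 23.9, 23.6 and 32.3 FPKM in si-SCR against 85.3, 81.5 and 88.0 FPKM in si-CyCoNP (log2 fold change 1.61, SE 0.097, adjusted p = 1.9e-12). TCOF1, a nucleolar protein of ribosomal RNA transcription, rose by 1.11 (SE 0.116, adjusted p = 3.0e-08). The dyskerin chaperone SHQ1 (0.32) and the paired ATPases RUVBL1 (0.23) and RUVBL2 (0.32) rose less, and PIH1D1 (-0.25), RPAP3 (-0.17) and ZNHIT3 (-0.18), which act with those ATPases in box C/D assembly, did not pass. Nor did ZNHIT6 (0.13) and NUFIP1 (0.02) of the same assembly, or NAF1 (0.39, adjusted p = 0.060), an H/ACA assembly factor. After scaling, the groups did not overlap for NAF1, higher in si-CyCoNP, and for ZNHIT3, lower in si-CyCoNP.

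Of the 7 Cajal body proteins, COIL, the coilin that marks the body, rose by 0.36 (SE 0.125, adjusted p = 0.033) and GEMIN5 by 0.47 (SE 0.109, adjusted p = 0.0014). The call of COIL was lost without si-SCR replicate 2 (0.20), si-CyCoNP replicate 2 (0.051) or si-CyCoNP replicate 3 (0.16), and was kept in 10 of 16 settings. WRAP53, which carries scaRNAs to the Cajal body, gave -0.23 (SE 0.219, adjusted p = 0.48). Of the 7 genes of 3′ end maturation and decay, TENT4B, a polymerase that adds adenosines to the 3′ ends of such RNAs, rose by 0.92 (SE 0.136, adjusted p = 6.8e-06) and the exosome nuclease DIS3 by 0.28 (adjusted p = 0.028). PARN, the deadenylase that removes such tails, gave 0.16 (adjusted p = 0.42).

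**Figure D5:**
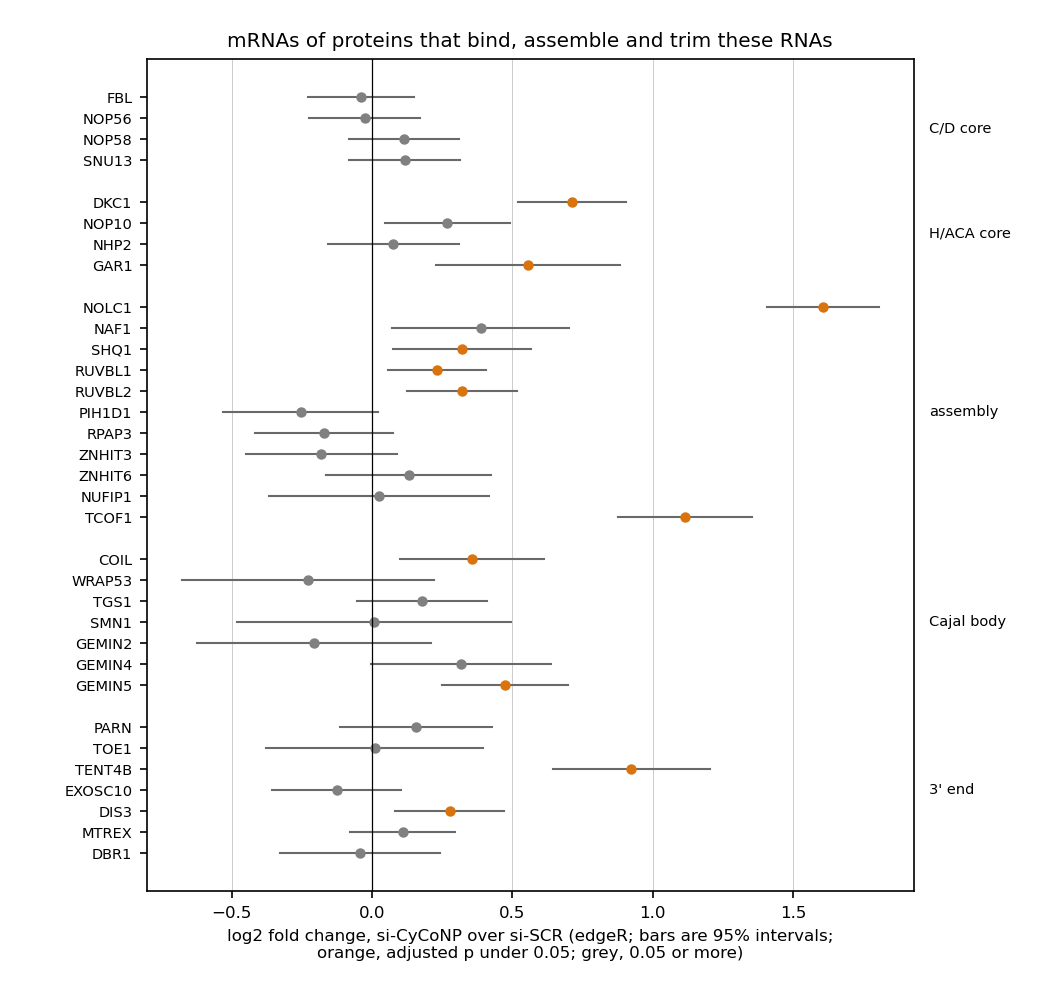
Log2 fold change of si-CyCoNP over si-SCR with its 95% interval for the 33 genes of the 5 protein lists, orange where the adjusted p was under 0.05. NOLC1 (1.61), TCOF1 (1.11), TENT4B (0.92) and DKC1 (0.71) lie farthest to the right, and the 4 box C/D core proteins lie around 0.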

How the data were processed

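RNA was extracted from SK-N-BE cells and made into stranded total RNA libraries after ribosomal RNA removal. Per the study's methods, the authors trimmed reads with Trimmomatic 0.39 and cutadapt 3.2, removed ribosomal reads with Bowtie2 2.4.2, aligned with STAR 2.7.7a to GRCh38 and counted uniquely mapping fragments per gene. The deposited values are these counts and FPKM computed from them by the authors. Counts were used for the main tests, and FPKM for the choice of members, for levels and for limma. Fragments that map to several copies or overlap several genes are missing from both, and fragment selection can thin RNAs shorter than a typical insert.

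Members and lists were chosen with earlier results of these data known. Genes with a mean of at least 1 FPKM in either group were tested with edgeR 4.0.16 (TMM scaling, quasi-likelihood test, Benjamini-Hochberg adjustment over 13966 genes), and a gene passed at an adjusted p under 0.05. DESeq2 1.42.0, limma 3.58.1 on log2(FPKM + 1) or log2(FPKM + 0.1), other scalings and filters, a replicate block and leaving out each library were alternatives. The edgeR, DESeq2 and limma fits were tested on simulated data first. Only well-counted genes were changed there, by more than any fall called in a member, so that test does not cover low counts or small changes. Named members were, among those with a mean of at least 10 counts, all past both thresholds, otherwise the 8 smallest p in each class and direction, the 6 most abundant per class, those nearest the 1 FPKM limit and members fixed by name, with their hosts. SNORA22, SNORA9B, SNORD14A, SNORD14E and SNORD114-6 were chosen after their values were seen. Hosts, exon overlaps and sequences came from GENCODE v44 on GRCh38, and the positions of the ribosomal RNA genes and the U3 length from RefSeq on GRCh38. In all 156 members the gene length behind the FPKM equalled the GENCODE v44 length. All 6 columns of each table matched a sample, so none was left out.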

Additional observations from a re-analysis of the deposited data

How the results depend on the processing

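The number of members that fell (6) was 0 with DESeq2, 2 with library totals alone, 5 without a filter and 2 to 5 on leaving out 1 library. With limma it was 5 and 4 at pseudocounts of 1 and 0.1, of which SNORD114-21 alone is among the 6. It was 2 without si-CyCoNP replicate 1 or 2 and 3 without si-SCR replicate 1 or 2. The number that rose (1) was 0 with DESeq2 or edgeR's default filter, 7 with limma at either pseudocount and 0 to 1 on leaving out 1 library, being 0 without si-SCR replicate 1 or 2 or si-CyCoNP replicate 3. With a log2 fold change past 1, the 1 higher member became 0 with DESeq2 or the default filter, 4 with limma at either pseudocount and 0 to 1 without 1 library, and the 0 lower became 2 with limma at a pseudocount of 1, 1 at 0.1 and 0 to 1 without 1 library.

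The box C/D median was -0.21 by library totals, -0.10 without a minimum count and -0.32 to -0.19 on leaving out 1 library. The H/ACA median was 0.074 without a minimum count, and the scaRNA median was -0.28 to -0.082 on leaving out 1 library, the latter without si-CyCoNP replicate 2. The log2 ratio of summed H/ACA CPM was 0.03 by totals and -0.040 with TMM library sizes. That of box C/D was -0.31 and, without SNORD3A, a choice made after seeing the data, -0.15.

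Some estimates near 0 changed sign. By library totals these were SNORD13 (0.024), SNORA73B (0.022), SNORA49 (0.015) and FBL (0.027). With limma at pseudocounts of 1 and 0.1 they were SNORD13 (0.034 and 0.034), SNORD15B (0.15 and 0.15), SNORA73B (0.018 and 0.018), SNORA49 (0.096 and 0.099), SNORA22 (0.018 and 0.018) and FBL (0.029 and 0.030). On leaving out 1 library, the ranges that crossed 0 were -0.39 to 0.29 for SNORD15B, -0.031 to 0.43 for SNORD3B-2, -0.79 to 0.011 for SNORD113-2, -0.13 to 0.032 for SNORA73B, -0.28 to 0.13 for SNORA49, -0.23 to 0.14 for SNORA22, -0.14 to 0.45 for SNORA38B, -0.027 to 0.38 for SCARNA22, -0.75 to 0.037 for SCARNA9, -0.092 to 0.017 for FBL and -0.064 to 0.038 for SNX5. SNX5 was also -0.0045 with DESeq2, -0.0044 with its size factors and -0.00020 with the replicate block. The causes were not tested.

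With the replicate number as a block, 7 members fell, SCARNA5 being added, and 1 rose. The deviations of same-numbered libraries correlated at 0.091, 0.073 and 0.108 over 13966 genes, and 6 of 6 libraries correlated best with their own number, a hint from the data and not from the design. Depth limits what could be seen, since members under 10 counts had SEs of at least 0.48 on the log2 scale.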
